A study of Mus musculus with 12 samples.

Results

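Fos, Fosl2 and Jun, which encode subunits of the transcription factor AP-1, and Klf6, which encodes a zinc finger transcription factor, were followed in MC3T3-E1 cells after 5 h of fluid shear. MC3T3-E1 is a clonal osteoblast-like line from mouse calvaria, so every sample came from 1 line. All probes whose only gene symbol in the array's annotation was one of these 4 genes were taken, which gave 8 of the 28704 probes and 4 of the 10225 genes named on the array. Shear samples (n = 6) came from confluent monolayers on glass slides that were placed in a parallel plate chamber under pulsatile flow, with an average shear stress of 5 dyn/cm2 at 1 Hz. Control samples (n = 6) were kept static in the same apparatus. Both were grown in medium with 5% serum, and the flow loop held medium with 1% serum. Nothing in the labels ties the 6 samples of a group to separate cultures, so a p-value here covers no more than the scatter of these samples, and that scatter may be technical. Samples were taken at 5 h alone, so a level reached earlier, and whether a gene was still raised from it, was not measured.

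AP-1 is a family of dimers: Jun proteins pair with themselves, with Fos proteins or with some ATF proteins, while Fos proteins need a partner such as Jun. The Fos and Jun genes are classic immediate early genes, switched on by MAP kinase signalling without new protein synthesis, and in many cells their transcripts rise and decay quickly. Fosl2 encodes Fra-2, a later acting Fos protein with roles in osteoblasts and osteoclasts, and Klf6 binds GC-rich promoter elements and is itself an early response gene in many cells.

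The promoter windows of the 4 genes are shown because Klf6 and Jun, whose probes had the highest changes of the measured members, share a motif there. The sequences are those of RefSeq on build GRCm38.p6 and run 5′ to 3′ on the gene's strand, with 250 bases before the start and 50 from it, 300 in all. The windows lie at chr13:5861239-5861538 for Klf6 (plus strand), chr4:95052173-95052472 for Jun (minus strand), chr5:32136222-32136521 for Fosl2 (plus strand) and chr12:85473640-85473939 for Fos (plus strand). Capitals mark the motifs found.
Klf6: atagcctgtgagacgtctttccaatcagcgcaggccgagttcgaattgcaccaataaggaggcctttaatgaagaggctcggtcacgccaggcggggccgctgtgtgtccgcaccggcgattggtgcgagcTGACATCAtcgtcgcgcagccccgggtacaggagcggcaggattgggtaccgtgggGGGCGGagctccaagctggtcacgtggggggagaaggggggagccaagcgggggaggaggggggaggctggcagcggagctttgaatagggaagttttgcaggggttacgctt
Jun: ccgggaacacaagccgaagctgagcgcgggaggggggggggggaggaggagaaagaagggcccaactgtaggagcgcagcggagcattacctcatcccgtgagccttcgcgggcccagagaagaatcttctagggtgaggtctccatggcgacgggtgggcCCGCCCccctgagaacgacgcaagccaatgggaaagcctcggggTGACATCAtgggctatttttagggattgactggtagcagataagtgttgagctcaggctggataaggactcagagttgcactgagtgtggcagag
Fosl2: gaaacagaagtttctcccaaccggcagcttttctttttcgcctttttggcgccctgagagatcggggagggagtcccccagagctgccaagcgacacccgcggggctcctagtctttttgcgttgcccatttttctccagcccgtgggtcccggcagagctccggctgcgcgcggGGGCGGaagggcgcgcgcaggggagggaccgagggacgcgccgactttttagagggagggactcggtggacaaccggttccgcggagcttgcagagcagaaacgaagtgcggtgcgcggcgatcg
Fos: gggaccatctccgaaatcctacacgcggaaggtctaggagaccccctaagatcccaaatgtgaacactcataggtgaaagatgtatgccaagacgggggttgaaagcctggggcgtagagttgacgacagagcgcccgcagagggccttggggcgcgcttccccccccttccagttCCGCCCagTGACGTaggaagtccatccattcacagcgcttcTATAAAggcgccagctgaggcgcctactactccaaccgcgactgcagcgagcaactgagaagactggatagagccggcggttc
The letters TGACATCA stood in the Klf6 window with their first base at −119 from the start and in the Jun window at −45. A site of this form near the start of human JUN is known to bind dimers of Jun and ATF2. It occurred in 3.62% of the 32851 promoter windows in the table, read on both strands. The GC box GGGCGG, the kind of element that Sp and Klf proteins bind, was in all 4 windows, against 35.7% of all windows; in Jun and Fos it read on the minus strand, as CCGCCC. In the Fos window TGACGT, the first 6 letters of the cAMP response element TGACGTCA, began at −66 and TATAAA at −33. These occurred in 7.51% and 13.6% of all windows. The AP-1 site TGACTCA, the full TGACGTCA and the CArG box were searched too and were not found in these 4 windows. Elements more than 250 bases before the start lie outside the windows and were not searched. The motifs were chosen with the sequences in view, and a match is a description of the letters only.

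The values were log2 signals of spotted 2-colour arrays, each relative to the median of its block of spots in its own sample, so 0 stands for the median spot and a level can be compared between samples but not between probes. Per the labels, odd replicate numbers were labelled with Cy5 and even numbers with Cy3, on 6 arrays in a design that pairs samples of 1 group. No label states which samples shared an array, so neighbouring numbers in a group (1 with 2, 3 with 4, 5 with 6) were treated as array partners. Pearson's r over probes, given as a description, was 0.954 to 0.981 for array partners, against 0.873 to 0.915 for the remaining pairs inside a group. On that reading each group rests on 3 arrays, which limits the precision, and the calls depend on it: 2664 probes passed with no array block, Klf6 and Jun among them, against 354 with it. Between 18434 and 23790 probes had a value per sample, with median net fluorescence of 243 to 868, and the array of control replicates 3 and 4 had the fewest values (72.9% and 64.2% of probes). In the fit over 21883 probes, 354 (1.62%) passed the threshold of an adjusted p of 0.05 (limma, Benjamini-Hochberg), 310 (1.42%) higher and 44 (0.201%) lower in shear, and the median change was 0.10. That count of 354 was 206 without control replicate 1, 172 without control replicate 3, 183 without shear replicate 1, 203 without shear replicate 3 and 198 without shear replicate 6. In bulk RNA, fewer cells that express a gene and less of its RNA per cell cannot be told apart.

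Of the 8 member probes, 5 had a value in all 12 samples: Klf6 6987, Jun 14158, Fosl2 28167, Fos 13688 and Fos 3483. Probes Fosl2 3716 and Jun 22911 had no value in any sample, and Fosl2 4321 had 1 value, so these 3 were not fitted. None of the 5 fitted probes passed the threshold, against the 1.62% of all probes that did. The groups did not overlap for 1 of the 5, Klf6, which was higher in shear, as were 6.26% of all probes. No member had every shear sample below every control sample, as 1.68% of all probes did. Their unadjusted p was under 0.05 for 2, Klf6 and Jun, where 14.6% of all probes were. The order of the changes was Klf6, Jun, Fosl2, Fos 13688 and Fos 3483.

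**Figure D1:**
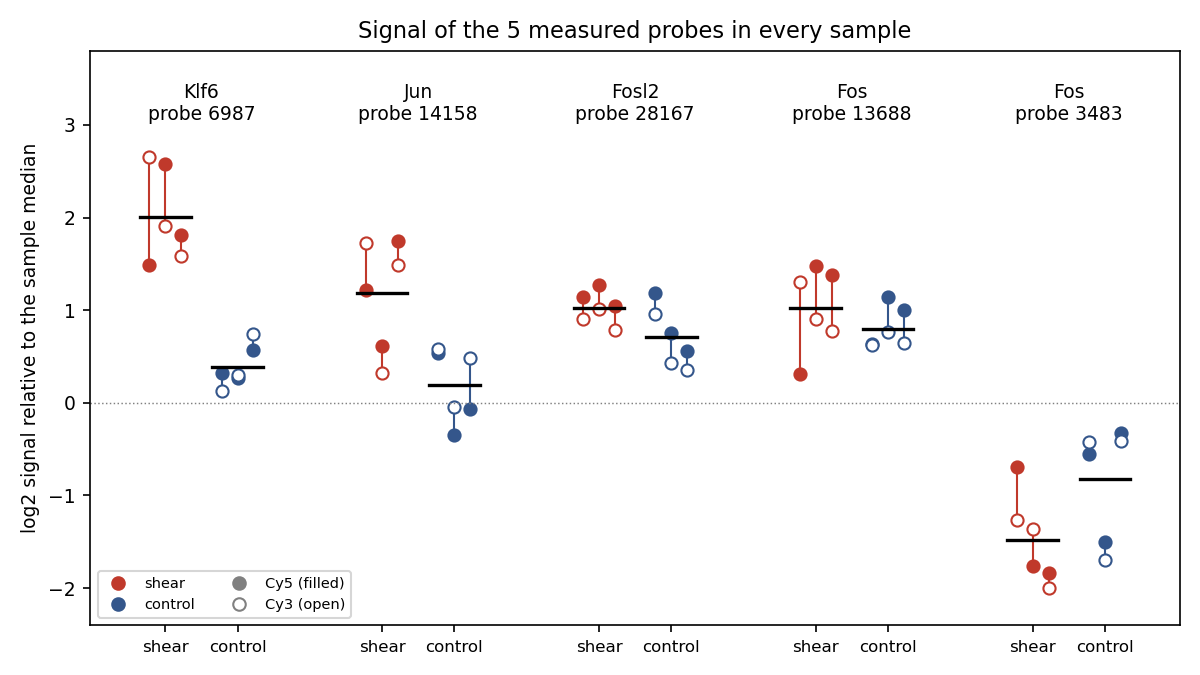
Log2 signal (vertical axis) of the 5 measured member probes in each shear and control sample, with a line for each group mean. Joined points are samples treated as array partners, filled points are Cy5 and open points Cy3. The Klf6 samples lie between 1.49 and 2.65 in shear and between 0.13 and 0.74 in control, and the groups of the other 4 probes overlap.

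Klf6 (Entrez gene 23849) had the highest change of the 4 genes. Its log2 signal was 1.49 at the lowest, 1.86 at the median and 2.65 at the highest in shear samples, against 0.13, 0.31 and 0.74 in control samples. Every shear sample was above every control sample. In net fluorescence the spot read 897 to 4172 in shear and 330 to 887 in control samples, with medians of 2003.5 and 628.5. The means were 2.0 ± 0.50 in shear and 0.39 ± 0.22 in control samples (SD, n = 6 each). The change was 1.62 ± 0.43 (SE) on the log2 scale, 3.07-fold higher, with a 95% interval of 0.70 to 2.53. Its p was 0.00192 and its adjusted p 0.0782 (limma), so it did not pass, and 0.85% of all probes had a change at least as high. By array, shear replicates 1 and 2 averaged 2.07, 3 and 4 averaged 2.25 and 5 and 6 averaged 1.70, against 0.22, 0.28 and 0.65 for the same numbers in control. The change was 1.58 among Cy5 samples and 1.66 among Cy3 samples (3 per group each). The call turned on the model and on single samples. With all samples kept, Klf6 passed with no array block, each array averaged or no dye term (adjusted p = 0.000759, 0.0437 and 0.0209, limma). Without shear replicate 1 the change was 1.82 with an adjusted p of 0.0211 (limma). Without shear replicate 2 it was 1.41 with an adjusted p of 0.0408 (limma), so both fits were past the threshold. Those 2 replicates, taken as array partners, lay 1.16 apart, against 0.67 and 0.23 for the other shear partners. Over 34 alternative fits the adjusted p lay between 0.000759 and 0.196.

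Jun (Entrez gene 16476), the central AP-1 subunit, came next. Its log2 signal had a lowest value of 0.32, a median of 1.35 and a highest of 1.75 in shear samples, against −0.35, 0.22 and 0.58 in control samples. The groups overlapped: shear replicate 4, at 0.32, was below control replicates 1, 2 and 6, at 0.54, 0.58 and 0.48. The means were 1.18 ± 0.60 in shear and 0.19 ± 0.39 in control samples (SD, n = 6 each). The change of 1.00 ± 0.36 (SE), 2.0-fold, had a 95% interval of 0.22 to 1.78, a p of 0.0153 and an adjusted p of 0.204 (limma). The change was 1.16 among Cy5 samples and 0.84 among Cy3 samples (3 per group each). The arrays within a group lay apart from each other. Shear replicates 3 and 4 averaged 0.47, while the other shear arrays averaged 1.47 and 1.62; control replicates 3 and 4 averaged −0.20 and the other control arrays 0.56 and 0.20. Klf6 did not follow this pattern in shear, since its array of replicates 3 and 4 had the highest mean.

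**Figure D2:**
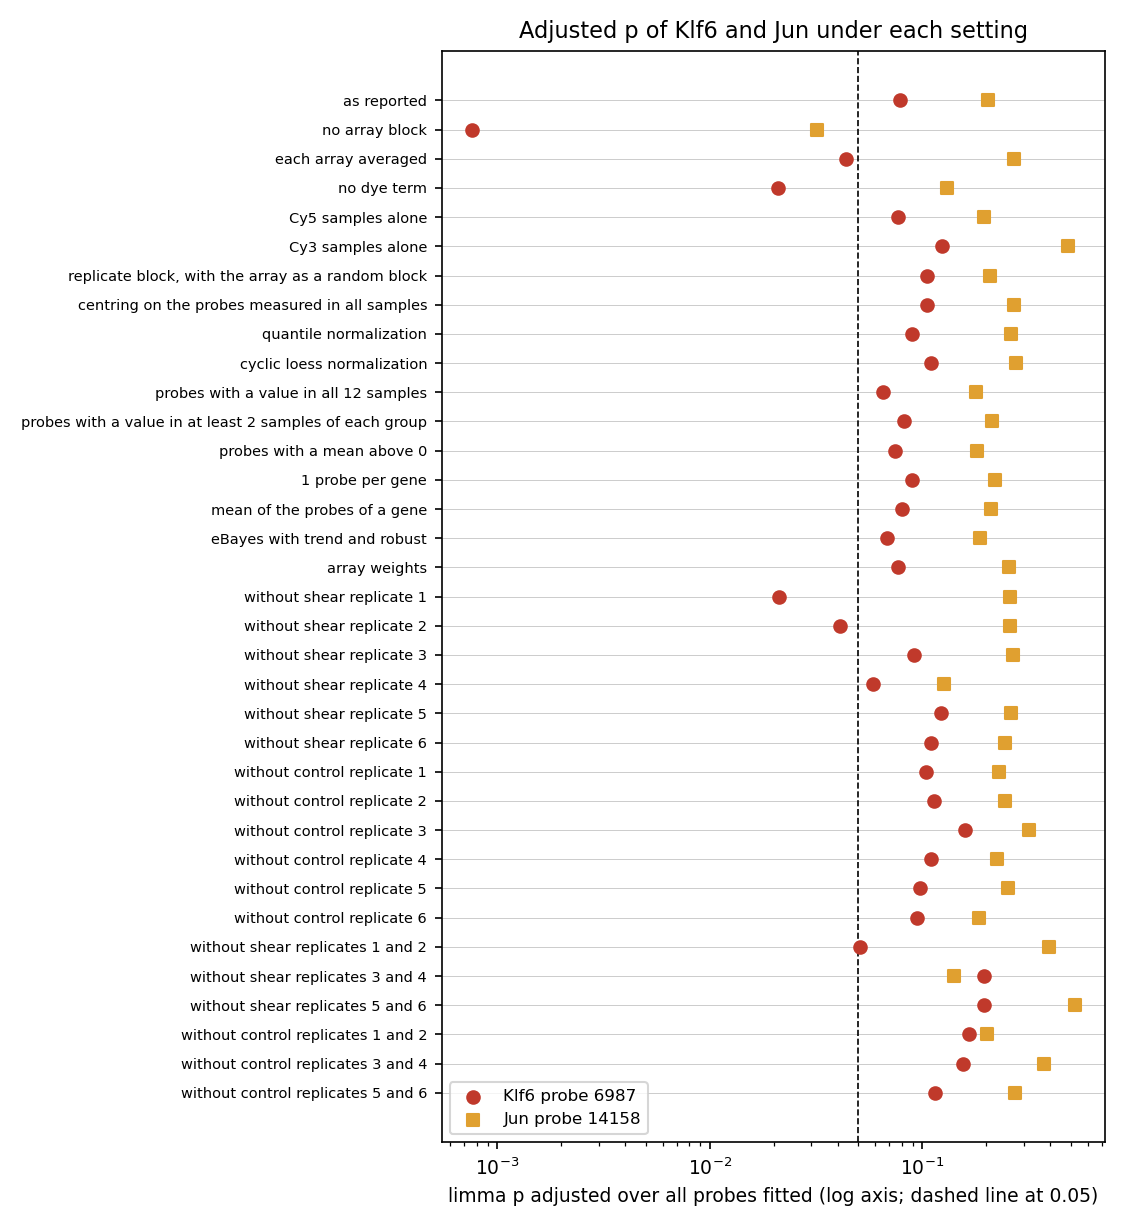
Adjusted p from limma (horizontal log axis) of Klf6 and Jun as reported and under each of 34 alternatives, with a dashed line at the threshold of 0.05. Klf6 lies below it in 5 alternatives and Jun in 1, and the Klf6 values range between 0.000759 and 0.196.

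Fosl2 (Entrez gene 14284) was measured by 1 probe, 28167. Its log2 signal ran between 0.79 and 1.27 with a median of 1.02 in shear samples, against 0.35 to 1.18 with a median of 0.65 in control samples. Control replicates 1 and 2, at 1.18 and 0.96, lay among the shear samples, and the other 4 control samples lay below all of them. The means were 1.03 ± 0.17 in shear and 0.70 ± 0.32 in control samples (SD, n = 6 each). The change was 0.32 ± 0.21 (SE), 1.25-fold, with an interval of −0.13 to 0.78 and an adjusted p of 0.528 (limma). By array, shear replicates averaged 1.02, 1.14 and 0.91, against 1.07, 0.59 and 0.45 in control, so 1 control array lay among the shear arrays.

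Fos (Entrez gene 14281), the first known Fos gene, was measured by 2 probes that ran opposite ways, and neither change passed. On probe 13688 the log2 signal was 0.31, 1.10 and 1.48 (lowest, median, highest) in shear samples, against 0.62, 0.71 and 1.14 in control samples. The means were 1.03 ± 0.44 in shear and 0.80 ± 0.22 in control samples (SD, n = 6 each). The change was 0.22 ± 0.41 (SE), with an interval of −0.66 to 1.10 and an adjusted p of 0.86 (limma). The shear samples of this probe held both the lowest value of all 12, replicate 1, and the 3 highest, replicates 2, 3 and 5. The change was 0.44 without shear replicate 1 and 0.03 without shear replicate 2. On probe 3483 the signal was −2.0, −1.56 and −0.69 in shear samples, against −1.70, −0.48 and −0.33 in control samples. Both groups were below the median spot, with net fluorescence of 76 to 350 in shear and 104 to 542 in control samples, so the spot was dim in both. The means were −1.48 ± 0.48 in shear and −0.82 ± 0.61 in control samples (SD, n = 6 each). The change was −0.67 ± 0.37 (SE), with an interval of −1.45 to 0.12 and an adjusted p of 0.436 (limma). Control replicates 3 and 4, at −1.50 and −1.70, lay among the shear samples and the other 4 control samples above all of them. Without the array of those 2 control samples the change was −1.06, which did not pass. The mean of both probes per sample was −0.23 ± 0.21 in shear and −0.01 ± 0.28 in control samples (SD, n = 6 each), a change of −0.22 ± 0.24 (SE) with an adjusted p of 0.745 (limma). Which parts of the transcript the 2 probes read was not analysed here.

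**Figure D3:**
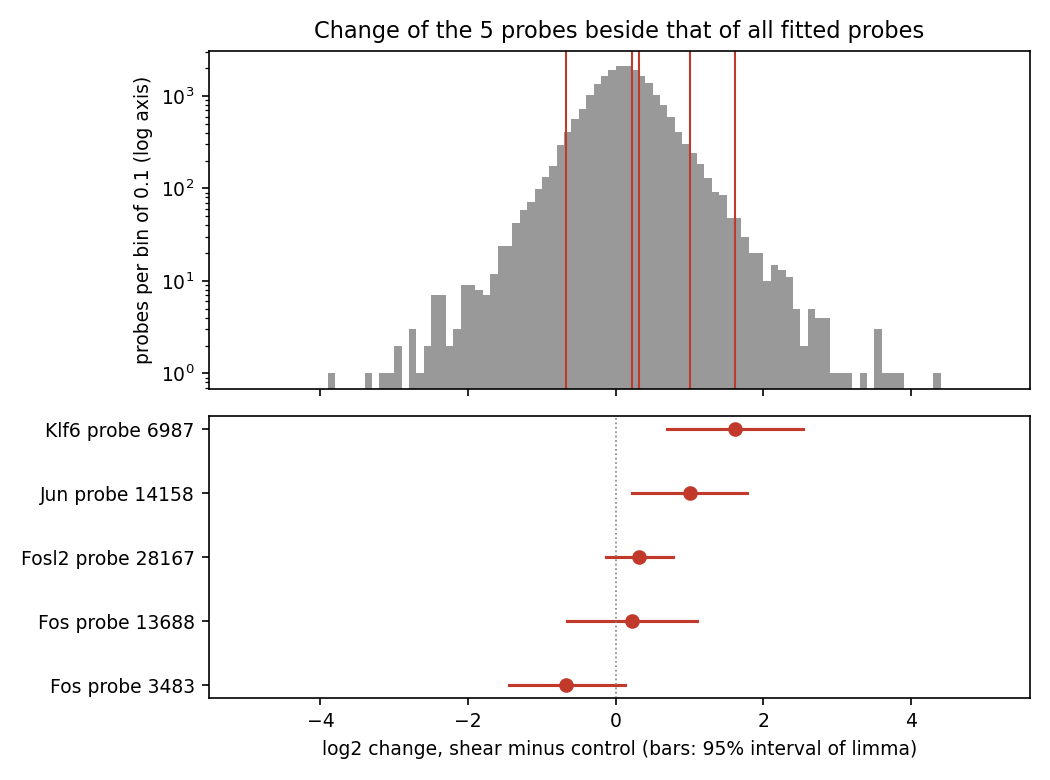
Above, the number of fitted probes (log axis) by change in log2 signal, shear minus control, with red lines at the 5 member probes; below, the change of each with its 95% interval from limma. The intervals of Klf6 (0.70 to 2.53) and Jun (0.22 to 1.78) lie above 0, those of Fosl2 and both Fos probes include 0, and none of the 5 passed after adjustment.

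The members were then set against each other inside each sample, which removes what a sample's scale adds to all of its probes. The difference of 2 members was compared between 6 shear and 6 control samples with an exact two-sided permutation test, adjusted over the 10 pairs (Benjamini-Hochberg). This test was chosen after the values were seen, its smallest p is 0.00216, and samples that share an array are not independent, so these p-values are too small. Klf6 minus Fosl2 averaged 0.98 in shear and −0.32 in control samples, a shift of 1.29 (exact adjusted p = 0.0108). Klf6 minus Fos 13688 averaged 0.98 in shear and −0.42 in control samples, a shift of 1.40 (exact adjusted p = 0.00722). Relative to Fosl2 and to Fos 13688 in the same sample, Klf6 thus averaged higher in shear than in control samples. For Klf6 minus Fosl2 the groups overlapped, with 0.35 the lowest in shear and 0.39 the highest in control samples. For Klf6 minus Fos 13688 these were 0.43 and 0.08. Against the dim Fos probe 3483 the shift was 2.28 for Klf6 and 1.67 for Jun (exact adjusted p = 0.00722 each), and 0.99 for Fosl2 (exact adjusted p = 0.026). The call for Fosl2 against Fos 3483 was lost without control replicate 1, 2, 5 or 6, or without shear replicate 5 or 6 (exact adjusted p = 0.0519 each). Klf6 and Jun were not told apart: Klf6 minus Jun averaged 0.82 in shear and 0.20 in control samples, a shift of 0.62 (exact adjusted p = 0.156). The shift was 0.67 for Jun minus Fosl2 and 0.78 for Jun minus Fos 13688 (exact adjusted p = 0.114 each). It was 0.10 for Fosl2 minus Fos 13688 (exact adjusted p = 0.686) and 0.89 between the 2 Fos probes (exact adjusted p = 0.116). A p above the threshold does not show that 2 members moved alike.

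**Figure D4:**
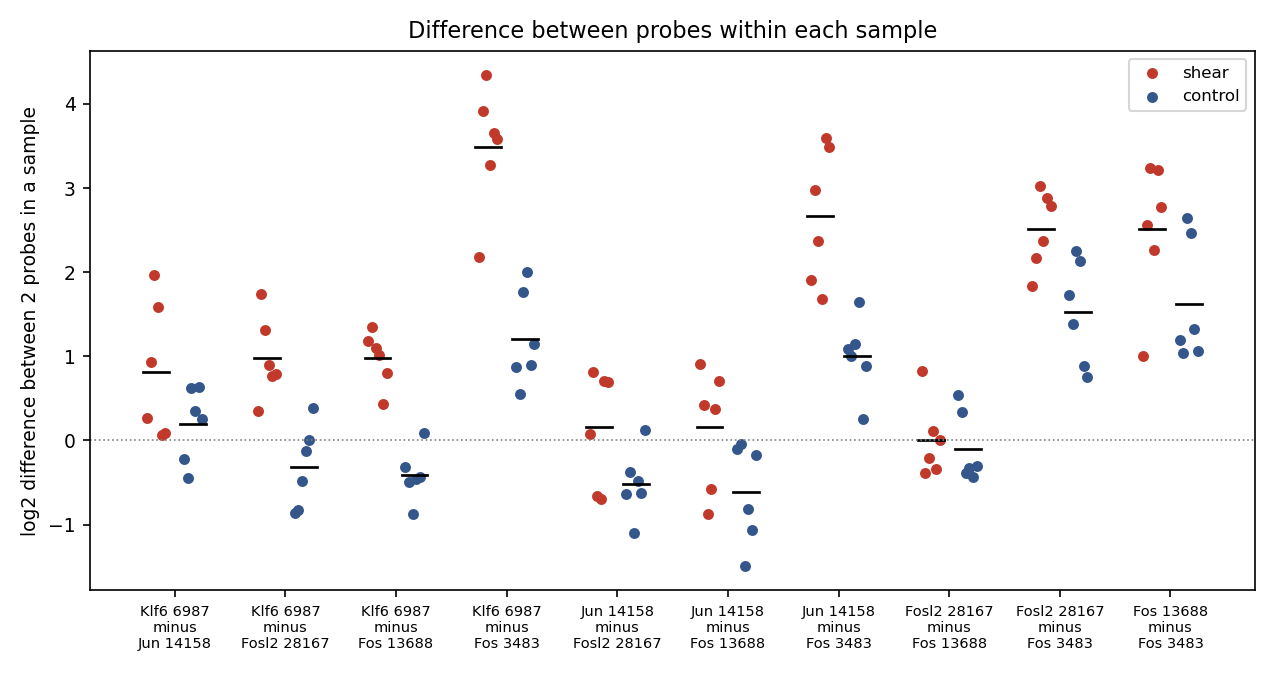
Difference in log2 signal between 2 member probes within a sample (vertical axis), for each shear and control sample, with a line for each group mean and the 10 pairs along the horizontal axis. Klf6 minus Fos 13688 averages 0.98 in shear and −0.42 in control samples, while Fosl2 minus Fos 13688 averages 0.00 and −0.10.

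Among other genes of the AP-1 family and its partners, 8 of the 22 listed were fitted, with 11 probes. Maff, a small Maf protein that lacks a transactivation domain, was the 1 gene with a probe that rose, and none fell. Of all probes, 1.42% rose and 0.201% fell. The median change in the list was 0.21, against 0.10 for all probes. Maff signal was 0.29 to 1.49 in shear samples and −1.56 to −0.84 in control samples, a change of 2.17 ± 0.33 (SE) with an adjusted p of 0.00515 (limma). Mafg, another small Maf, had a change of 0.92 and Atf3, a stress-induced ATF protein, 0.79, and neither passed. Atf2, a dimer partner of Jun, had 0.50, 0.21, 0.08 and −1.07 on its fitted probes, and none of these passed. In the Klf and Sp family, 14 genes with 27 probes were fitted, and 1 probe rose and none fell (median 0.18), against the same shares of all probes. In lists of 11 and 27 probes, 1 call says little about a family. The Klf and Sp probe that rose was Klf16, with a signal of 0.46 to 1.01 in shear and −0.95 to 0.20 in control samples. Its change was 1.03 ± 0.25 (SE, adjusted p = 0.0493, limma), a call that was lost in 24 of 33 alternative fits. Klf4, a factor known to respond to shear in endothelial cells, had changes of 1.72 and 1.13 on 2 probes. Klf10, an early gene of TGF-beta signalling, had 1.00 and 0.81. Klf9 had 1.84 on a probe with 4 values per group and a control mean of −1.57, and this ran between 0.88 and 2.34 over alternative fits. None of these passed.

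The steps before and after the members were read from lists in the same way. Of kinases and factors upstream of AP-1, 20 genes with 42 probes were fitted and none passed in either direction (median 0.20). Of all probes 1.62% passed, and their median was 0.10. The lowest adjusted p there was 0.058 for Nras, a Ras GTPase, with a change of 1.04 (limma). The MAP kinase kinase Map2k1 had 0.95, and Mapk8, which encodes the Jun kinase JNK1, had 0.54. Of genes for turnover and partners of Fos and Jun proteins, 12 genes with 29 probes were fitted, and none passed (median −0.10), against the same 1.62%. Here the ubiquitin ligase gene Cop1 had a change of 0.65, Nfatc1, whose protein binds DNA beside AP-1, 0.90, and the chromatin remodelling subunit gene Smarcd1 0.44. Beside so low a share of all probes, the lack of a call among 42 or 29 probes says little about these genes.

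Other immediate early genes, which cells switch on early after a stimulus as they do Fos and Jun, were read from a list of 38. Of 16 genes fitted with 29 probes, 8 probes of 5 genes rose and none fell, with a median of 1.01. Of all probes, 1.42% rose and 0.201% fell, and the median was 0.10. This list and the others were chosen with earlier results of these data known, so their counts are no independent evidence. Ccn1, a secreted matrix protein, had a change of 2.47, the survival factor gene Ier3 had 2.82 and 2.54 on 2 probes, and Ier5 1.61 on 1 of its 3 probes, while the others had −0.09 and 0.96 and did not pass. The Ier5 call was lost in 21 of 33 alternative fits, and those of Ier3 in 14 of 33 and 18 of 32. The mRNA decay factor gene Zfp36l2 had 2.53, and the growth regulator Myc 1.85, 1.81 and 1.76 on 3 of its 4 probes, while the other had 0.38 and did not pass. Errfi1, an inhibitor of the EGF receptor, had 1.95, the GTPase gene Rhob 1.44 and Ier2 1.01, and these did not pass. The Klf6 change of 1.62 lay at the low end of those that passed in this list (1.61 to 2.82). Its SE of 0.43 lay within the range of theirs (0.27 to 0.62), where the Ier5 probe that passed had 0.36.

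Of genes listed as AP-1 targets, 20 genes with 31 probes were fitted; 5 probes of 4 genes rose, none fell, and the median was 0.46, against 1.42% and 0.201% of all probes and a median of 0.10. Those that rose were Hmox1, the heme-degrading enzyme, with a change of 4.37, the urokinase receptor gene Plaur with 2.74, Csf1, a growth factor of the macrophage and osteoclast lineage, with 2.39 and 2.18, and Lox, which cross-links collagen, with 2.10. The hyaluronan receptor gene Cd44 had 1.04 and the metallothionein genes Mt1 and Mt2 had 0.86 and 0.90, and none of these passed. Of genes listed as Klf6 targets, 11 genes with 17 probes were fitted, and Hmox1, which is on both lists, was the 1 that rose (median 0.10). The cell cycle inhibitor gene Cdkn1a had a change of 1.11, the TGF-beta coreceptor gene Eng 0.80 and the cadherin gene Cdh1 −0.67, and none of these passed. Other factors also act on these genes, and the part of the members in their changes was not tested.

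**Figure D5:**
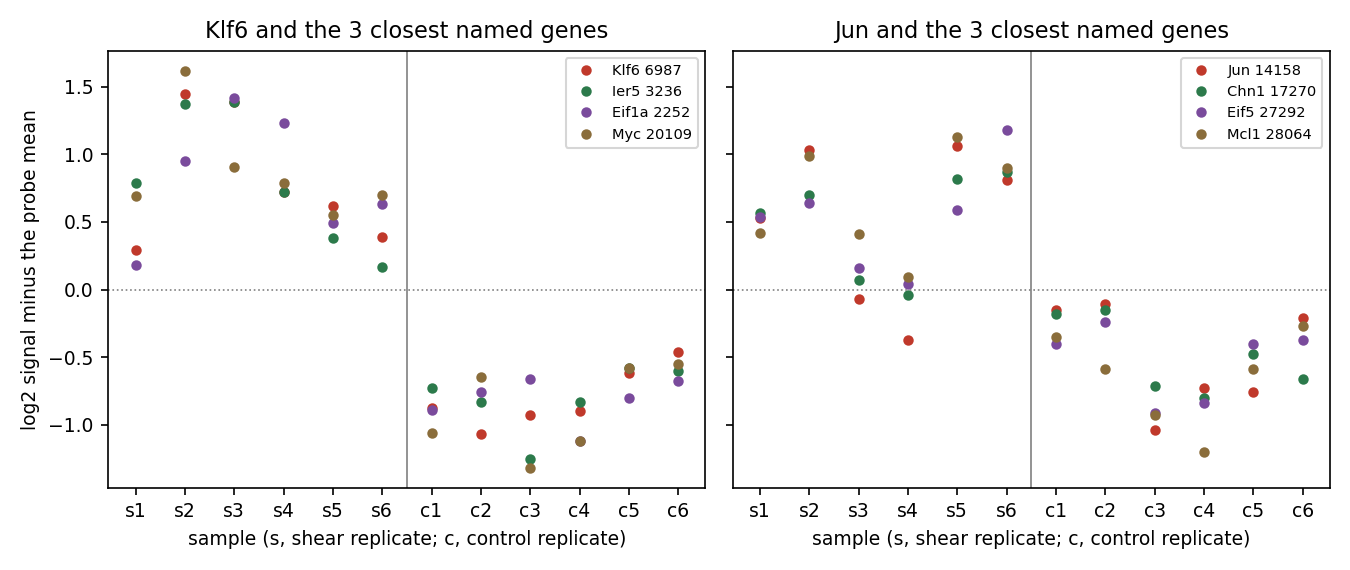
Log2 signal centred on each probe's own mean (vertical axis) in the 12 samples (horizontal axis), for Klf6 and Jun and the 3 named genes most like each. Ier5, Eif1a and Myc lie 0.22 to 0.28 (root mean square) from Klf6, and Chn1, Eif5 and Mcl1 lie 0.24 to 0.29 from Jun.

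The genes most like each member were those with the smallest root mean square difference in log2 signal over the 12 samples, each probe centred on its own mean, among 12625 named probes. The group difference is part of this measure, so a change near the member's own follows from the choice and supports nothing. For Klf6 these were Ier5 (0.22), Eif1a, a translation initiation factor gene (0.27), and Myc (0.28), against a median of 0.92 over all those probes. The changes of these 3 probes were 1.61, 1.63 and 1.76, with adjusted p of 0.0395, 0.0288 and 0.0139 (limma). Those calls were lost in 21 of 33 alternative fits for Ier5, 7 of 32 for Eif1a and 5 of 32 for Myc. For Jun they were Chn1 (0.24), the initiation factor gene Eif5 (0.29) and the survival gene Mcl1 (0.29), against a median of 0.74. Their changes of 0.99, 1.05 and 1.31 did not pass, with adjusted p of 0.0684, 0.0782 and 0.0659 (limma). For Fosl2 they were Mrps7, Stam and Mtmr3 (0.10 each, median 0.43). For Fos 13688 they were Cirbp, Nr2e1 and Dgat2 (0.18 to 0.22, median 0.52), and for Fos 3483 Zdhhc17, Rnf145 and Narf (0.18 to 0.20, median 0.69). Likeness over samples that share arrays is a description of the pattern only.

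Markers were read beside these results. Of 16 osteoblast markers, 8 were on the array by name and 7 were fitted, with 10 probes. The collagen genes Col1a2 and Col1a1 and the bone matrix gene Sparc were above the median spot, with highest probe means of 4.45, 1.4 and 5.6 in shear and 4.4, 1.65 and 5.48 in control samples. Runx2, Sp7, Ibsp and Bglap had no named probe, and Alpl was below the median spot, at −0.95 in shear and −1.01 in control samples. Lox rose, as given above, and the homeobox gene Dlx5 fell by 0.97 (adjusted p = 0.0479, limma, lost in 26 of 33 alternative fits). Of all probes, 1.42% rose and 0.201% fell. The homeobox gene Msx2 had a change of −0.56, and 1 probe each of Col1a2 and Sparc had 0.45 and −0.71, and these did not pass. Of markers of macrophages and osteoclasts, endothelium, fat, cartilage and muscle, 24 genes with 31 probes were fitted. None passed, against 1.62% of all probes, which says little for so few. Changes of these markers ran between −0.94 and 0.80. Those with the smallest p were Fcer1g (−0.54), Mmp9 (0.52) and Tyrobp (0.28) for macrophages and osteoclasts, and Eng (0.80), Cldn5 (0.40) and Cdh5 (0.37) for endothelium. For fat they were Cidec (0.42), Retn (−0.36) and Dgat2 (0.17), for cartilage Comp (0.32), Col11a1 (−0.94) and Col9a1 (−0.20), and for muscle Cnn1 (0.80), Tnnt1 (−0.59) and Myh3 (−0.17). Some of these markers were above the median spot too, as Tnnt1 (3.2 in shear, 3.79 in control samples) and Tyrobp (1.77 and 1.49). Others were below it, as Fcer1g (−2.9 and −2.27). Such levels thus do not set osteoblast markers apart from those of other cell types. The reference list held 6 fitted genes with 13 probes, with changes between −1.33 and 0.96, and none passed, against the same 1.62% of all probes. Hprt (0.96, adjusted p = 0.0917, limma) and Tbp (0.77, adjusted p = 0.109, limma) had every shear sample above every control sample, and B2m had −1.22. Gapdh had −0.26 and the gap junction gene Gja1 −0.06, and 3 Actb probes had 0.53, 0.82 and −0.31; the signs of Gapdh, Gja1 and the last Actb probe turned in some alternative fits. The reference genes thus did not all lie near 0 on this scale.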

How the data were processed

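The authors deposited 1 log2 value per probe and sample. Tested on the file, a value is log2 of net fluorescence, a whole number to within 0.002, over the median of its block of 598 probes. This held in all 576 pairs of block and sample. Of the scanner, background correction and missing spots nothing is given in the sources used here. Per the labels, total RNA was labelled with Cy5 or Cy3.

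Symbols came from the array's annotation, updated or kept through the Entrez number for 18267 of the 18511 probes with 1 symbol. Samples were centred on their medians, and each probe was a feature of its own and needed at least 4 of 6 values per group, with no imputation. limma 3.58.1 (R 4.3.3) fitted group and dye, with the array as a random block (correlation 0.727). Each array held 1 group, and the degrees of freedom count samples, so p-values can be too small. Adjustment was over all 21883 probes (Benjamini-Hochberg, threshold 0.05). Exact permutation tests used scipy 1.17.1. The fit was tested on simulated data. Alternatives changed the block, the dye, the scaling, the filter, the probes per gene, the array weights and the samples left out. The members and lists were chosen with earlier results of these data known. All member probes were named, all genes of a list that passed and 3 others by smallest p, the 3 genes most like each member, and Gapdh, Actb and Gja1. The levels of Col1a1 and Alpl, of the brightest Col1a2 and Sparc probes, and of Tnnt1, Tyrobp and Fcer1g were added after their values were seen.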

Additional observations from a re-analysis of the deposited data

Results flagged for a closer look

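Shear replicate 2 had a value for 21847 probes, which lay far below the other shear samples for the size of their spread. It was 1 of 12 sets of 6 values tested for a single sample that stands apart, and chance alone gives about 1 in 20. The Klf6 signal of that replicate, 2.65, was the highest of all, and the change without it is given above. The Fosl2 probe 4321, outside the comparison, had a value in shear replicate 6, a log2 signal of −2.20 at a net fluorescence of 153, and none in any control sample. With 1 value, no difference can be read from this.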

How the results depend on the processing

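The 5 member probes kept their direction in all 166 of their fits under alternatives. Fos 3483 had 31 such fits and Fos 13688 had 33, against 34 for each other member probe. The fit on gene means merges the 2 Fos probes and is not counted for them, and its change for Fos was −0.22. Of the 166 fits, 6 changed side of the threshold. For Klf6, at 1.62, these were the fits with no array block (adjusted p = 0.000759), with each array averaged (0.0437) and with no dye term (0.0209), and 2 that left out a sample (limma; range over 34 alternatives 0.000759 to 0.196). Jun, at 1.00, passed with no array block (adjusted p = 0.032, limma, range 0.032 to 0.521). With 1 sample left out, Klf6 ran between 1.41 and 1.82, Jun 0.90 and 1.12, Fosl2 0.30 and 0.35, Fos 13688 0.03 and 0.44, and Fos 3483 −0.78 and −0.58. Over every alternative, Fosl2 ran between 0.16 and 0.51 and Fos 3483 between −1.06 and −0.44.

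The 354 calls became 2664 with no array block, 106 with arrays averaged, 558 with no dye term, 63 and 14 with Cy5 and Cy3 samples alone, 235 with quantile scaling, 232 with 1 probe per gene, 217 with gene means and 587 with array weights. They were 172 to 369 with 1 sample left out. Without an array they were 217 (control 1 and 2), 179 (control 5 and 6), 192 (shear 1 and 2), 68 (shear 3 and 4) and 103 (shear 5 and 6). The share of calls that were higher was 87.6%, against 67.5% with centring on probes measured in all samples, 70.0% with cyclic loess, 74.0% with no array block, 75.5% with array weights, 76.2% without control 4 and 70.9% without control 3 and 4. Centring and loess moved the median change of all probes to −0.02, against 0.10. Relative to that median, Klf6 was at 1.52, against 1.5 with centring and 1.45 with loess, and Jun at 0.90, 0.88 and 0.86.

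Same-numbered samples did not deviate together (r between −0.091 and 0.116). Each array held 1 group and its samples shared a part of their deviation (correlation 0.727), so this cannot show whether the numbers pair samples. With the replicate block, 163 probes passed, Klf6 was at 1.62 (adjusted p = 0.105, limma) and no member's call changed. Fosl2 minus Fos 13688 turned to −0.06 without shear 1, −0.03 without control 3 and 4, −0.03 without control 5 and 6 and −0.01 without shear 1 and 2; it ran between −0.06 and 0.23 with 1 sample left out. Signs of non-member probes that did not pass turned in these fits: Cirbp was −0.12 with Cy5 alone, −0.02 with centring and with loess, −0.03 with array weights and −0.09 to 0.34 with 1 sample left out, and Nr2e1 −0.01 with centring. Without shear 1 and 2, Sparc was 0.78, Myh3 0.19, Actb 17463 0.35 and Ier5 10606 0.26. Without control 1 and 2, Myh3 and Retn were 0.11 each, and without control 3 and 4, Col1a2 was −0.06. Without control 5 and 6, Ier5 10606 was 0.10 and Myc 14454 −0.13. Without shear 3 and 4, Myc 14454 was −1.17, and without shear 5 and 6, Tnnt1 was 0.70. Gapdh turned to 0.02 with Cy5 alone and 0.05 without control 3 and 4. Gja1 turned to 0.06 with Cy5 alone, 0.01 with array weights, 0.02 without control 4, 0.10 without control 3 and 4, 0.11 without shear 3 and 4 and 0.05 without shear 5 and 6, and ran between −0.14 and 0.02 with 1 sample left out. Of other calls, Maff was lost with Cy5 alone (adjusted p = 0.0536) and with Cy3 alone (range over 32 alternatives 0.000124 to 0.0536, limma), and Ccn1 in 7, Lox in 8, Hmox1 in 3 and Zfp36l2 in none of 33. The causes were not tested.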
